A study of Mus musculus with 9 samples.

Results

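Interferon-induced effector genes encode the proteins by which a cell acts on viral RNA and proteins after it has sensed interferon, and 49 of them were followed here by gene name in a table of 25494 genes measured by RNASeq. All 49 were found, and 47 had a mean of at least 10 fitted reads over the libraries, as did 13028 genes in all. Ifi44 and Ms4a4c stayed below that limit, at means of 1.36 and 1.81, and enter no count of levels or ratios below. The cells were immortalized bone marrow-derived macrophages (BMDMs) from mice without tristetraprolin (TTP, gene Zfp36), an RNA-binding protein that recognizes AU-rich elements in the 3′UTR of mRNAs and promotes their decay. The line was immortalized with human c-Myc and the oncogene hRasG12V and was sorted for macrophage surface markers. It was then transduced with a retroviral, doxycycline-inducible vector for GFP (GFP group), for GFP fused to TTP (TTP group) or for GFP fused to TTP-AA (TTP-AA group). TTP-AA carries S52A and S178A and cannot be phosphorylated at these serines by the kinase MK2. All groups, GFP included, lacked endogenous TTP and received doxycycline (1 µg/ml) for 6 h and lipopolysaccharide (LPS, 1 µg/ml) for 1 h. Each group had 3 libraries, 9 in all, and no library without doxycycline or without LPS was analysed here. Each group is 1 transduced line, so that the line and its transgene cannot be told apart.

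LPS binds Toll-like receptor 4 on macrophages and induces type I interferon, mainly interferon β in these cells. Secreted interferon engages the receptor formed by Ifnar1 and Ifnar2, and transcription factors, Stat2 and Irf9 among them, then assemble on a DNA element with repeated GAAA cores upstream of the effector genes. Part of the effector genes can also be induced by interferon regulatory factors before any interferon has been secreted. The products degrade RNA, bind foreign RNA ends, deplete nucleotides, modify proteins or trap virions.

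The table gives, for each gene and library, the fitted mean of the authors' count model and not the measured count. A fitted value is a library factor multiplied by a term for the replicate number and a term for the group, so the ratio between groups is the same for replicates 1, 2 and 3 by construction. No scatter between libraries is left. No test of a group difference was therefore possible, and no SD or p-value is given. Ratios are log2 ratios of the geometric group means after scaling of the libraries, and the error given with them (±) is the counting error alone, that is, the uncertainty set by the number of fitted reads. It does not cover the spread between cultures. In the members it had a median of 0.059 for TTP versus GFP, and a highest value of 0.36, in Ddx60. Fitted values of thin genes lie closer together than counting allows: in the 4735 genes with a mean of 1 to 10 the SD of the log2 ratio was 0.11 for TTP versus GFP, against a median counting error of 0.76. Ratios of the thinnest members may thus be understated. A gene is called past a threshold here when its ratio reached 2-fold (or, as a second rule, 1.5-fold), which is a statement of size.

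The fitted reads, in units of 1e+06, summed to 21.5 to 38.0 in 8 libraries and to 102.6 in TTP-AA library 3. Zfp36, the gene whose coding sequence the transgene supplies, did not separate the libraries labelled TTP from the GFP libraries. Its levels were 1302 fitted reads in GFP, 1331 in TTP and 2111 in TTP-AA, and the log2 ratio for TTP versus GFP was 0.03 ± 0.03. Which part of Zfp36 the line lacks and which part was counted is not given in the sources used here, so reads of the transgene and of the endogenous locus cannot be told apart. The group names therefore follow the labels, and every direction given for the libraries labelled TTP rests on them. The 9 macrophage marker names searched include Emr1 and Adgre1, which name the same gene. All 8 genes were in the table and passed the filter, with Lyz2 at a mean of 586346, Csf1r at 21230.1 and Itgam at 9319. Defining markers of T cells, B cells and fibroblasts were at or near 0, with summed levels of at most 5.92, 2.15 and 0.872 fitted reads in any library. The 8 macrophage markers had a median log2 ratio of -0.18 for TTP versus GFP, with Itgam at 0.05, Cd14 at 0.11, Csf1r at -0.04 and Cd68 at -0.07. The farthest from 0 were Emr1 and Fcgr1. Emr1, which encodes F4/80, had log2 ratios of -0.76 for TTP versus GFP and 1.44 for TTP-AA versus TTP, and Fcgr1, itself inducible by interferon, had -1.21 and 0.83. The summed level of the 8 markers, most of it Lyz2, was 577681 to 798399 in GFP, 481442 to 657373 in TTP and 662632 to 910167 in TTP-AA. For TTP-AA versus GFP, the neutrophil gene S100a8 was at 0.77 and Zbtb46, a dendritic cell gene at a mean of 32.0, at -1.10. The neutrophil gene Mpo had a mean of 0.493, and the dendritic cell genes Flt3 and Xcr1 were at -0.22 and -0.13. Of 4 markers of plasmacytoid dendritic cells, Siglech, Ly6d and Ccr9 were below the filter, and Tcf4 was at -0.41. Of 4 neutrophil markers 2 were in the table, with summed levels of 113 to 181 in GFP, 114 to 183 in TTP and 192 to 308 in TTP-AA. The 3 markers of conventional dendritic cells summed to 286 to 343, 276 to 327 and 228 to 278 in the same order. The part of these markers in the ratios of the effector genes was not tested. In bulk RNA, fewer cells with an active gene and less RNA per cell cannot be told apart.

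The DNA element named above was searched for in the RefSeq promoters of build GRCm38.p6, as GAAA, any 2 bases and GAAA on either strand. Windows ran from 250 bases before to 50 bases after each annotated start site. A window was found for 40 of the 49 members, 38 of them with a mean of at least 10. The element was in 17 of these 38 genes (44.7%), against 357 of the 9226 genes with a window and a mean of at least 10 (3.87%). The 230 bases from 250 to 21 bases before the start site are printed for 5 members on which the results turn, 5′ to 3′ on the gene's strand, with the matches in capitals. Isg15 holds 3 overlapping matches, beginning 78, 72 and 66 bases before its start site. Slfn5 had the lowest ratio for TTP versus GFP and has its match 155 bases before the start site, in a run of A. Rsad2 and Cmpk2 are neighbours that point away from each other, and only Rsad2 has a match, on the other strand, 120 bases before its start site. Oasl1 had the highest ratio for TTP-AA versus GFP, and like Cmpk2 it has no match in its window, which says only that these letters do not occur there.
Isg15, chr4:156200839-156201068, minus strand: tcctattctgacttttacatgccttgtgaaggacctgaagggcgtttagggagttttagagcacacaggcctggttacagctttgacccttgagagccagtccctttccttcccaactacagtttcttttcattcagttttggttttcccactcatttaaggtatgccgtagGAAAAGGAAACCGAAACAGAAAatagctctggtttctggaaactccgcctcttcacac
Slfn5, chr11:82951852-82952081, plus strand: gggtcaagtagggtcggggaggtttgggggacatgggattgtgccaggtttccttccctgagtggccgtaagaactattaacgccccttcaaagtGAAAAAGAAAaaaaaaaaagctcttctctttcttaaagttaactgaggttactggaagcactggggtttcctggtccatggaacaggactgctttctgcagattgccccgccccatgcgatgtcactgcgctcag
Rsad2, chr12:26456473-26456702, minus strand: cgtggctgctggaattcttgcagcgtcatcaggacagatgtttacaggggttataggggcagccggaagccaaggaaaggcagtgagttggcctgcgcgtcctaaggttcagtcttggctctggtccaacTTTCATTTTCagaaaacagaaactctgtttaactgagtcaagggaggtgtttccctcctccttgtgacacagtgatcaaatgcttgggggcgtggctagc
Cmpk2, chr12:26468965-26469194, plus strand: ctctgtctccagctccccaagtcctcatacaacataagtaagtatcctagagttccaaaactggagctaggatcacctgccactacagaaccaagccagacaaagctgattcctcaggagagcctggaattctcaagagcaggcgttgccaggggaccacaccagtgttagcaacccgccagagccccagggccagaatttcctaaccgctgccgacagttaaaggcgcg
Oasl1, chr5:114922990-114923219, plus strand: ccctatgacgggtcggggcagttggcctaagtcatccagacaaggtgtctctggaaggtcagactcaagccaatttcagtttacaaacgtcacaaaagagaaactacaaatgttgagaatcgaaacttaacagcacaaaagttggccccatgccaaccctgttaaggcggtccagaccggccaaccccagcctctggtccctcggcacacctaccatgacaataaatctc

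TTP binds UAUUUAU, so its DNA form TATTTAT was counted in the annotated 3′UTRs (GENCODE M21, build GRCm38, on the transcript with the longest coding sequence of each gene). It was in 6 of the 46 members with a 3′UTR and a mean of at least 10 (13%), against 3109 of 11326 genes (27.5%). The median 3′UTR was 803 bases long in the members and 961 in all genes. The 6 members are Ifit1, Mx1, Oas3, Usp18, Slfn5 and Nt5c3. Ifi44, below the limit on the mean, also holds a match. Other AU-rich forms and other transcripts were not searched, so a member without TATTTAT may still hold a site for TTP. Windows of 29 bases around the 7 matches of the 6 members are printed, with the match in capitals.
Ifit1, chr19:34649411-34649439, plus strand: acttctttcaaTATTTATatgctaaaagt
Mx1, chr16:97447241-97447269, minus strand: ttgtgaggtcaTATTTATactccttcatc
Oas3, chr5:120754251-120754279, minus strand: tgtgtgtgttgTATTTATctgtatgtgtg
Usp18, chr6:121270611-121270639, plus strand: caattaagcccTATTTATaagcaaaacta
Slfn5, first match, chr11:82962268-82962296, plus strand: tctacatgactTATTTATtcagaatcttt
Slfn5, other match, chr11:82964398-82964426, plus strand: gatcgcccttgTATTTATgtggggccatc
Nt5c3, chr6:56882862-56882890, minus strand: agactctttctTATTTATaaaacagtctt

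The comparison of TTP with GFP asks how macrophages that re-express phosphorylatable TTP differ from TTP-deficient cells after LPS. Most effector genes were lower in the libraries labelled TTP. The members and families were chosen with earlier results of these data known, so the shares set beside all genes are a description only. Of the 47 members 44 had a log2 ratio below 0 and 3 above, whereas 50.4% of all genes were below. The median was -0.50, with quartiles of -0.92 and -0.24, beside a median of -0.002 over all genes. In the TTP group 9 members were at least 2-fold lower (Cmpk2, Ifi204, Oas1g, Oas2, Oas3, Oasl1, Slfn5, Sp100 and Usp18), beside 1.07% of all genes, and 0 were at least 2-fold higher, beside 0.292%. By the 1.5-fold rule the counts were 22 lower, beside 2.88% of all genes, and 0 higher, beside 1.01%. The fitted libraries of both groups did not overlap in 20 members, which were all lower in TTP, beside 10.1% of all genes that were lower in every TTP library. The share of all genes higher in every TTP library was 9.45%, with 0 members.

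Between TTP-AA and GFP, a comparison that sets the phosphorylation site mutant against TTP deficiency, differences were smaller. The median log2 ratio of the members was 0.18, with quartiles of -0.04 and 0.45, beside 0.003 over all genes, and 34 of 47 members were above 0, beside 50.5% of all genes. Oasl1 was the member at least 2-fold higher in TTP-AA, beside 1.16% of all genes, and 0 members were at least 2-fold lower, beside 0.315%. At 1.5-fold Ddx60, Rsad2 and Samd9l joined Oasl1, which makes 4 members beside 4.25% of all genes, and 0 were lower, beside 2%. Libraries did not overlap in 4 members that were higher in TTP-AA (Ddx60, Ifitm3, Oasl1 and Tor3a), beside 12.4% of all genes. They did not overlap in 3 that were lower (Herc6, Mx1 and Phf11d), beside 12.5%.

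Between TTP-AA and TTP, which differ in the construct by the phosphorylation sites of MK2, the members lay almost entirely on the TTP-AA side. Of the 47 members 45 had a log2 ratio above 0, beside 50% of all genes, and the median was 0.63 with quartiles of 0.34 and 1.24, beside 0.000 over all genes. In TTP-AA 19 members were at least 2-fold higher, beside 2.67% of all genes, and 27 were at least 1.5-fold higher, beside 6.82%. The 2-fold and 1.5-fold counts of lower members were 0 and 0, beside 0.606% and 2.99%. Libraries did not overlap in 26 members, all higher in TTP-AA, beside 15.5% of all genes, and 0 members were lower in every library, beside 15.2%. The 3 comparisons share their libraries, so the ratio for TTP-AA versus TTP of each gene is the difference of its other ratios. Of the 47 members 31 were below GFP in TTP and above GFP in TTP-AA, beside 24.1% of all genes. A further 13 were below GFP in both, and Ifitm3, Tor3a and Nt5c3 were above GFP in both, beside 26.4% of all genes in each case. TTP was the lowest of the 3 groups in 42 members, beside 35.2% of all genes, and TTP-AA the highest in 34, beside 38.9%.

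**Figure D1:**
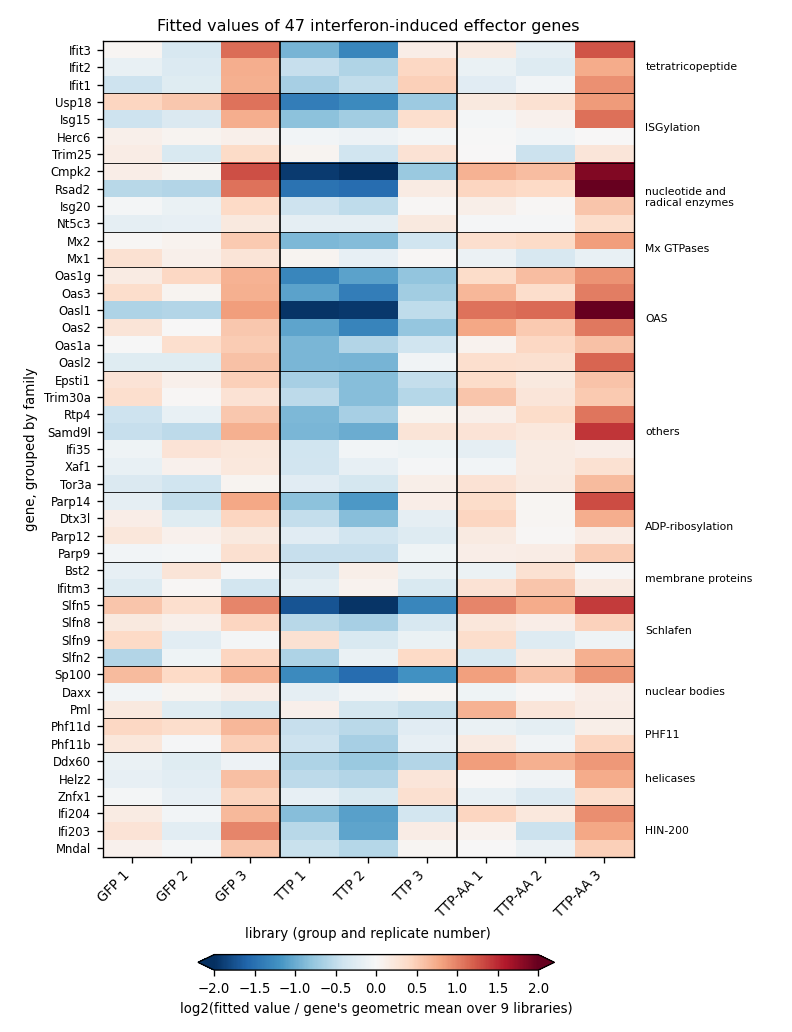
Heat map of the 47 members (rows, grouped by family) in the 9 libraries (columns), coloured by the log2 of the fitted value over the gene's geometric mean, with colours capped at 2 in either direction. TTP libraries 1 and 2 are mostly blue, with medians over the members of -0.55 and -0.66, and library 3 of each group is redder than libraries 1 and 2 of the same group for most members.

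Relative to each gene's own mean, the median over the members was 0.02, -0.05 and 0.50 on the log2 scale in GFP libraries 1, 2 and 3. It was -0.55, -0.66 and -0.09 in the TTP libraries and 0.19, 0.17 and 0.71 in the TTP-AA libraries. Thus the TTP libraries were below all others in this summary, TTP library 3 by little, while GFP and TTP-AA overlapped. The median over all genes was 0.002 in each library, which the scaling of the libraries holds level by construction.

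Oligoadenylate synthetases make 2′-5′-linked oligoadenylates from ATP when they bind double-stranded RNA, and these activate the ribonuclease RNase L. With the oligoadenylate synthetase-like genes, the family has 6 members. Among families of more than 2 members it had the lowest median in TTP versus GFP, at -1.33. At least 2-fold lower were 4 of 6, beside 1.07% of all genes. In TTP-AA versus TTP the median was 1.71, and 5 of 6 were at least 2-fold higher, beside 2.67% of all genes. Oas3, which makes long oligoadenylates, had fitted values of 832, 676 and 1071 in GFP libraries 1 to 3, of 312, 252 and 403 in the TTP libraries, and of 1032, 835 and 1328 in the TTP-AA libraries. All TTP libraries were below all others, and TTP-AA overlapped GFP. The log2 ratio of Oas3 was -1.42 ± 0.06 for TTP versus GFP and 0.31 ± 0.03 for TTP-AA versus GFP. Oas1g and Oas2 were of similar size for TTP versus GFP, at -1.48 ± 0.11 and -1.32 ± 0.13, and Oas1a was at -0.90 ± 0.04. Oas1a, Oas1g, Oas2 and Oas3 lie in a cluster at chr5:120730333-120907521, and reads of the near-identical Oas1a and Oas1g may have been shared between them.

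The oligoadenylate synthetase-like genes lie elsewhere on chromosome 5. Oasl1, which lacks synthetase activity and is known to block translation of Irf7 mRNA, had fitted values of 151, 155 and 415 in GFP, of 59.9, 61.1 and 165 in TTP and of 497, 509 and 1363 in TTP-AA. All TTP-AA libraries exceeded all others, whereas TTP library 3 lay above GFP libraries 1 and 2. The log2 ratio of Oasl1 was -1.34 ± 0.10 for TTP versus GFP, 1.71 ± 0.06 for TTP-AA versus GFP and 3.05 ± 0.09 for TTP-AA versus TTP, an 8.30-fold difference. Its neighbour Oasl2 (chr5:114896936-114912234) was thin, at a mean of 27.6, with log2 ratios of -0.67 ± 0.27, 0.57 ± 0.19 and 1.24 ± 0.23 in the same order.

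Rsad2, Cmpk2, Nt5c3 and Isg20 act on nucleotides and RNA. Rsad2 encodes viperin, a radical SAM enzyme that makes a chain-terminating nucleotide from CTP, and Cmpk2 is a nucleoside monophosphate kinase next to it on chromosome 12. The fitted values of Cmpk2 were 213, 203 and 476 in GFP, 51.7, 49.0 and 116 in TTP and 315, 299.9 and 706 in TTP-AA. All TTP libraries were below all GFP libraries. The values of Rsad2 were 421, 412 and 1310.0 in GFP, 222, 216 and 694 in TTP and 834, 813 and 2596 in TTP-AA. Here TTP library 3 exceeded GFP libraries 1 and 2, and library 3 was the highest in every group. The log2 ratio of Cmpk2 was -2.04 ± 0.11 for TTP versus GFP, 4.12-fold lower, and that of Rsad2 was -0.92 ± 0.05. For TTP-AA versus GFP Rsad2 had the larger difference, at 0.99 ± 0.03, and Cmpk2 was at 0.57 ± 0.06. In that comparison the 443 genes of chromosome 12 had a median of 0.16, and with chromosome medians set to 0 Rsad2 was at 0.83 and Cmpk2 at 0.41. Nt5c3, a cytosolic 5′-nucleotidase, was at 2208, 2224 and 2852 in GFP, 2217, 2216 and 2867 in TTP and 2465, 2474 and 3183 in TTP-AA, so that the groups overlapped throughout. Its log2 ratio for TTP versus GFP was 0.00 ± 0.02, and its 3′UTR holds TATTTAT. Isg20, a 3′-5′ exonuclease, was thin, at a mean of 13.3, and its log2 ratio of -0.37 ± 0.35 for TTP versus GFP is about as large as its counting error.

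The Ifit proteins bind viral RNA by its 5′ end and hinder its translation. The 3 genes followed here lie at chr19:34550694-34650009. Ifit1 was at 301, 340.2 and 661 in GFP, 254, 285 and 558 in TTP and 345, 388 and 756 in TTP-AA. For Ifit2 the values were 722, 661 and 1324 in GFP, 578, 526 and 1062 in TTP and 729, 665 and 1336 in TTP-AA. In both genes the spread over the libraries of a group was wider than the distance between groups, and all groups overlapped. Ifit3 was at 92.6, 72.2 and 195 in GFP, 47.1, 36.4 and 99.1 in TTP and 102, 79.6 and 215 in TTP-AA. Ifit3 overlapped between groups as well. Its log2 ratio for TTP versus GFP was -0.98 ± 0.13, while those of Ifit1 and Ifit2 were -0.25 ± 0.06 and -0.32 ± 0.04. Chromosome 19 as a whole was shifted in this comparison. Over its 460 genes the median log2 ratio for TTP versus GFP was 0.18, and 18.7% were below 0. With the median of each chromosome set to 0, Ifit1, Ifit2 and Ifit3 were at -0.43, -0.51 and -1.16. The part of the shift in these ratios was not tested.

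Isg15 is a ubiquitin-like protein that is joined to other proteins, Herc6 is its ligase in the mouse, Trim25 is a ligase that also activates the RNA sensor encoded by Ddx58, and Usp18 removes Isg15 and dampens signaling at the receptor. Usp18 was at 288, 312 and 454 in GFP, 82.4, 88.6 and 130.0 in TTP and 245, 264 and 386 in TTP-AA. All TTP libraries were below all others, and the log2 ratio was -1.81 ± 0.10 for TTP versus GFP and -0.24 ± 0.06 for TTP-AA versus GFP. Isg15 was at 84.4, 92.2 and 187 in GFP, 63.8, 69.3 and 141 in TTP and 109, 118 and 240.5 in TTP-AA, and all groups overlapped. Its log2 ratio for TTP versus GFP was -0.41 ± 0.12. The ligases were nearly level. Herc6 was at 723, 701 and 726 in GFP, 654, 629.6 and 658 in TTP and 674, 651 and 677 in TTP-AA, with log2 ratios of -0.15 ± 0.05 and -0.10 ± 0.04 against GFP. Its fitted libraries did not overlap with GFP in either comparison, which in a gene with a replicate span of 0.06 needs no more than a small difference. Trim25 was at 6571, 4849.6 and 7758 in GFP, 6189.6, 4535 and 7319 in TTP and 5996, 4409 and 7078 in TTP-AA. Its log2 ratios against GFP were -0.09 ± 0.02 and -0.13 ± 0.01. For TTP-AA versus GFP the genes of chromosome 11 had a median of -0.10, and with chromosome medians set to 0 Trim25 was at -0.03.

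The Mx proteins are dynamin-like GTPases that block virus nucleocapsids, and their genes are neighbours on chromosome 16 (Mx1 at chr16:97447035-97462907, Mx2 at chr16:97535308-97560900). Mx2 is annotated as a polymorphic pseudogene. Mx1 was at 63.6, 55.2 and 61.7 in GFP, 53.7, 46.2 and 52.2 in TTP and 47.7, 41.2 and 46.3 in TTP-AA. All GFP libraries of Mx1 were above all others. TTP-AA was the lowest group, with a log2 ratio of -0.42 ± 0.15 against GFP and of -0.17 ± 0.16 against TTP, the lowest of all members in the latter. Mx2 was at 26.0, 26.9 and 36.9 in GFP, 13.7, 14.1 and 19.5 in TTP and 32.5, 33.5 and 46.1 in TTP-AA. Its log2 ratios were -0.92 ± 0.27 for TTP versus GFP and 0.32 ± 0.19 for TTP-AA versus GFP. These neighbours thus lay on opposite sides of GFP in TTP-AA. For TTP-AA versus GFP the 404 genes of chromosome 16 had a median of 0.12. With chromosome medians set to 0, Mx1 was at -0.54 and Mx2 at 0.20 in that comparison.

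Schlafen genes of the cluster at chr11:82951349-83070678 had the widest range within a family for TTP versus GFP. Slfn5 was at 499.9, 427 and 667 in GFP, 103, 87.3 and 137 in TTP and 668, 568 and 890.1 in TTP-AA. All TTP libraries were below all others. The log2 ratio of Slfn5 was -2.28 ± 0.09 for TTP versus GFP, 4.87-fold lower, and 2.70 ± 0.09 for TTP-AA versus TTP. In the latter comparison the 1106 genes of chromosome 11 had a median of -0.13, and with chromosome medians set to 0 Slfn5 was at 2.83. Slfn2, whose loss impairs quiescence of T cells and monocytes, was at 9316, 13122 and 18818 in GFP, 9114, 12744 and 18437 in TTP and 11302, 15862 and 22824 in TTP-AA. It hardly differed between TTP and GFP, with a log2 ratio of -0.03 ± 0.01. Slfn9 was at -0.10 ± 0.04, and the thin Slfn8 at -0.75 ± 0.25. Exons of Slfn5 overlap an antisense transcript, Slfn5os, and no source used here says whether reads were counted by strand, so its reads cannot be told from those of the partner. In all 15 members share exon bases with another annotated gene, among them Oasl1 and Usp18 with antisense transcripts.

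Sp100, Pml and Daxx encode proteins of nuclear bodies, which repress viral genomes. Sp100 was at 497, 421 and 519.7 in GFP, 133, 111 and 139 in TTP and 563, 475 and 589 in TTP-AA. It was 3.75-fold lower in TTP than in GFP (log2 ratio -1.91 ± 0.09), with no overlap, and overlapped GFP in TTP-AA. Pml, the scaffold of these bodies, was at -0.10 ± 0.05 and Daxx at -0.12 ± 0.04 for TTP versus GFP. For TTP-AA versus GFP Pml was at 0.49 ± 0.04 and Daxx at -0.03 ± 0.03.

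Ifi203, Ifi204 and Mndal belong to the HIN-200 family of nuclear DNA-binding proteins on chromosome 1, of which Ifi204 is known as a DNA sensor. Ifi203 was at 320.2, 228 and 520.3 in GFP, 180.1, 127 and 293 in TTP and 278, 197 and 452 in TTP-AA, and all groups overlapped. The log2 ratio for TTP versus GFP was -0.83 ± 0.08 for Ifi203, -1.02 ± 0.13 for Ifi204 and -0.53 ± 0.07 for Mndal. Ifi203 and Mndal share exons on the same strand, so their counts are not independent. Phf11d and Phf11b, neighbours on chromosome 14 with zinc fingers of the PHD type, were lower in TTP, at -0.88 ± 0.07 and -0.64 ± 0.24. Phf11d was at 403, 385 and 476 in GFP, 219, 208 and 259 in TTP and 277, 264 and 327 in TTP-AA. All its GFP libraries were above all others, and its log2 ratio of -0.54 ± 0.06 for TTP-AA versus GFP was the lowest of the members.

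Parp9, Parp12 and Parp14 transfer ADP-ribose or bind it, and Dtx3l is the ubiquitin ligase that pairs with Parp9. For TTP versus GFP these 4 genes were within -0.65 to -0.41, and for TTP-AA versus TTP within 0.40 to 1.19, of which Parp14 was the highest. Parp9, Parp14 and Dtx3l lie on chromosome 16, whose genes had a median of 0.13 for TTP-AA versus TTP. Parp9 and Dtx3l share exon bases on opposite strands. Their log2 ratios for TTP versus GFP were -0.41 ± 0.05 and -0.61 ± 0.05. Among the helicases, Znfx1, which binds viral RNA at mitochondria, was at 3727, 3404 and 5196 in GFP, 3394, 3077 and 4739.7 in TTP and 3449, 3139 and 4809 in TTP-AA. The groups overlapped, and its log2 ratio was -0.14 ± 0.02 for TTP versus GFP and 0.02 ± 0.02 for TTP-AA versus TTP. Helz2 was at -0.36 ± 0.05 for TTP versus GFP. Ddx60, a promoter of RNA sensing, had the lowest level per length of the members and was at 0.96 ± 0.26 for TTP-AA versus GFP.

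Genes of membrane proteins differed little between TTP and GFP. Bst2, or tetherin, which holds budding virions at the surface, was at 6346, 8471 and 6999 in GFP, 5834, 7729.8 and 6443 in TTP and 6574, 8743 and 7248 in TTP-AA. Ifitm3, which blocks fusion of virions in endosomes, was at 3019, 3654 and 2803 in GFP, 3158, 3794 and 2936 in TTP and 4406, 5314 and 4089.9 in TTP-AA. The groups overlapped for Bst2, and for Ifitm3 all TTP-AA libraries were above all others. The log2 ratio of Bst2 was -0.12 ± 0.01 for TTP versus GFP and 0.05 ± 0.01 for TTP-AA versus GFP, and that of Ifitm3 was 0.06 ± 0.02 and 0.54 ± 0.02. Tor3a, an ATPase of the endoplasmic reticulum, followed Ifitm3. It was at 2164, 2013 and 2736 in GFP, 2257, 2085 and 2858 in TTP and 3237, 3001 and 4091 in TTP-AA, with log2 ratios of 0.06 ± 0.03 and 0.58 ± 0.02 against GFP.

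Of the remaining members, Samd9l, a cytosolic restriction factor, was at 689, 661 and 1549.9 in GFP, 501, 477 and 1128 in TTP and 1139, 1088 and 2560.5 in TTP-AA. Its groups overlapped through the high libraries 3, and its log2 ratio was -0.46 ± 0.04 for TTP versus GFP and 0.72 ± 0.03 for TTP-AA versus GFP. Epsti1 and Trim30a, a negative regulator of Toll-like receptor signaling, were lower in TTP without overlap, at -0.95 ± 0.06 and -0.86 ± 0.05. Rtp4, a chaperone of receptor transport, was at -0.50 ± 0.09, Ifi35 at -0.32 ± 0.04 and the pro-apoptotic Xaf1 at -0.24 ± 0.07, and the groups overlapped in these genes. Epsti1, Trim30a, Rtp4 and Samd9l were at least 2-fold higher in TTP-AA than in TTP.

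**Figure D2:**
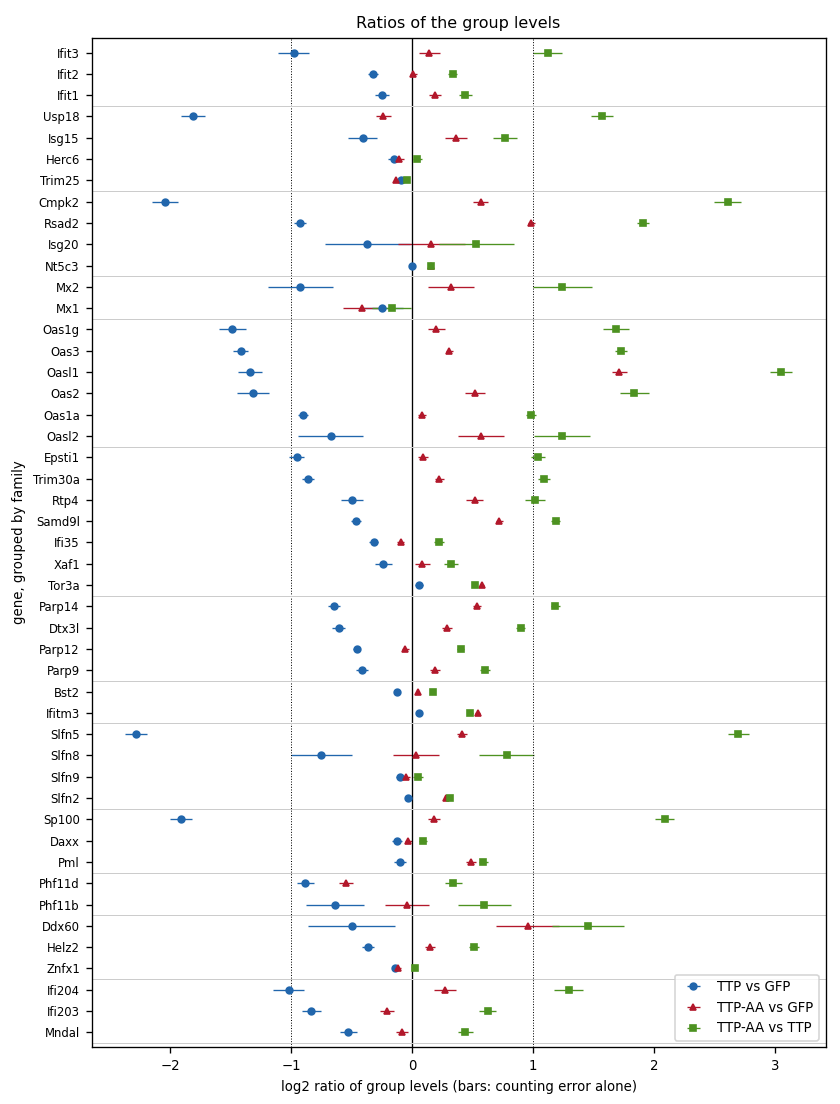
Log2 ratios of the group levels (x axis) of the 47 members (y axis, grouped by family) for TTP versus GFP (circles), TTP-AA versus GFP (triangles) and TTP-AA versus TTP (squares). Bars are the counting error alone and dotted lines mark 2-fold, and Slfn5, Cmpk2, Sp100 and Usp18 lie farthest to the left while Oasl1 lies farthest to the right.

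Ratios were smaller in the more abundant members. Per length of transcript, the most abundant members in GFP were Bst2, Slfn2 and Ifitm3, with 9115, 7933 and 4629.8 fitted reads per kb, and the least abundant was Ddx60 with 2.41. Isg15, with 149.8 fitted reads per kb, was at the 34.7th percentile of all genes tested. Among the 15 members with 225 or more fitted reads per kb in GFP, the median log2 ratio for TTP versus GFP was -0.14 and 0 were at least 2-fold lower, beside 0.238% of the 7153 genes in the same range. Of the 16 members between 110.0 and 196 fitted reads per kb, 4 were at least 2-fold lower, with a median of -0.57, beside 1.52% of 1249 genes. Of the 16 at 108 or below, 5 were at least 2-fold lower, with a median of -0.71, beside 2.54% of 3774 genes. For TTP-AA versus TTP the medians in the same order were 0.34, 0.83 and 1.21. The share of 2-fold ratios thus differed with level over all genes as well.

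**Figure D3:**
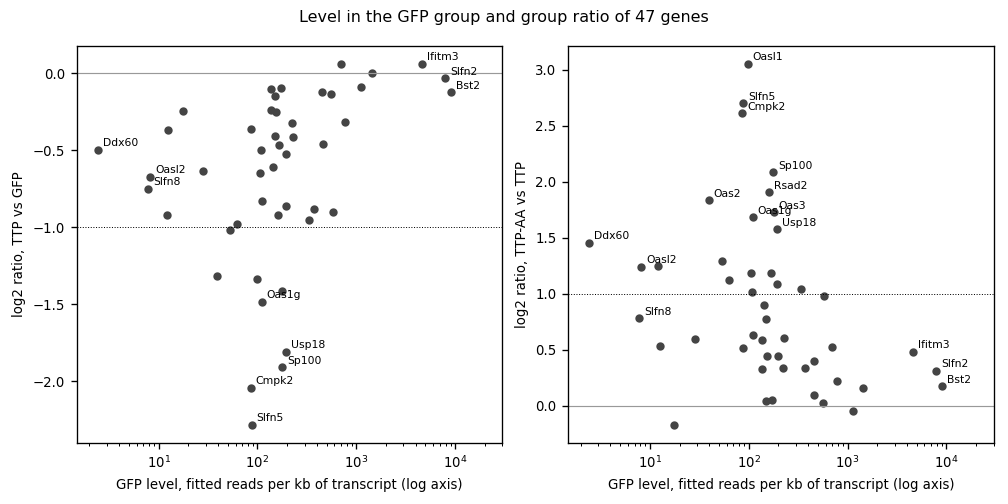
Log2 ratio (y axes) for TTP versus GFP (left) and TTP-AA versus TTP (right) against the GFP level in fitted reads per kb of transcript (log axis), 1 point for each of the 47 members, with the 2-fold line dotted. The most abundant members, Bst2, Slfn2 and Ifitm3, lie near 0 in the left plot, and Slfn5, Cmpk2, Sp100 and Usp18, with 85.6 to 195 fitted reads per kb, lie lowest.

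Sequence features divided the members less clearly. The 17 members with the GAAA element had a median log2 ratio of -0.75 for TTP versus GFP (range -2.28 to 0.06), and the 21 with a window but no match had -0.36 (range -2.04 to 0.00). Of each set 3 were at least 2-fold lower. Ifi204, Oas2 and Usp18 were also at least 2-fold lower, but have no window and are in neither set. Over all genes with the element 2.23% were at least 2-fold lower, and without it 0.958%. The 6 members with TATTTAT in the 3′UTR had a median of -0.83 for TTP versus GFP, beside -0.50 in the 40 without, and they ranged from Slfn5 at -2.28 through Usp18 at -1.81 and Oas3 at -1.42 to Ifit1 and Mx1 at -0.25 and Nt5c3 at 0.00. For TTP-AA versus GFP both medians were 0.17. Over all genes the medians with and without TATTTAT were -0.036 and 0.012 for TTP versus GFP, and -0.066 and 0.021 for TTP-AA versus GFP.

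The replicate number itself separated the effector genes. In replicate 3 compared with replicate 1 the median log2 ratio of the members was 0.38 (quartiles 0.22 and 0.80), with 41 of 47 above 0, beside -0.010 over all genes. At least 2-fold higher were 8 members (Cmpk2, Ifit1, Ifit3, Isg15, Oasl1, Rsad2, Samd9l and Slfn2), beside 0.56% of all genes. Rsad2 had the highest value, 1.64, followed by Oasl1 at 1.46. In replicate 2 compared with replicate 1 the median was -0.10, and 0 members were at least 2-fold higher, beside 0.299% of all genes. The span over the 3 replicate numbers had a median of 0.54 in the members and 0.32 in all genes. In fitted values a group ratio larger than this span is the same as libraries without overlap, so the counts given above hold for both. For TTP versus GFP the ratio exceeded the span in Slfn5, Sp100, Usp18 and Oas3, and did not in Ifit1, Isg15, Rsad2 and Slfn2. The study's model has a library date term, and the table's replicate term has the same value in every group. It does not show whether culture, stimulation or library preparation differed.

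**Figure D4:**
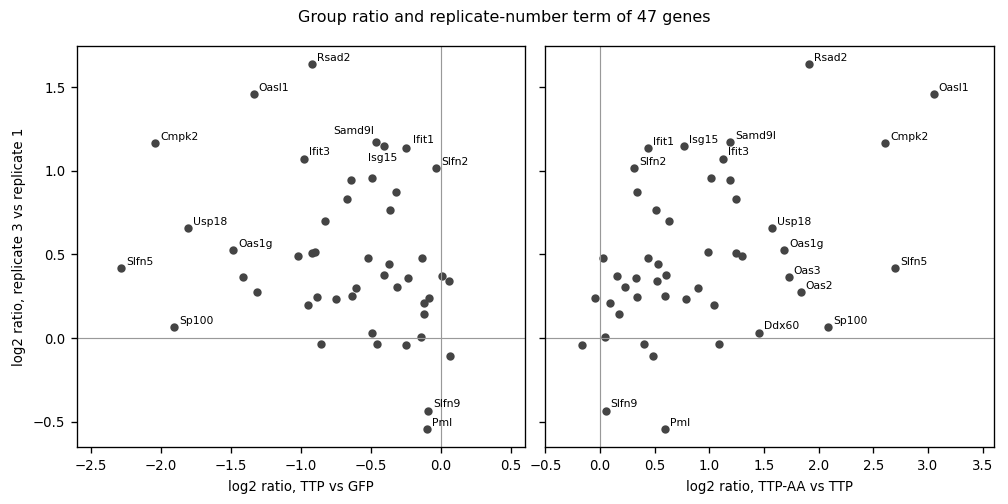
Replicate 3 versus replicate 1 (y axis, log2 ratio, the same in all groups) against the log2 ratio for TTP versus GFP (left) and TTP-AA versus TTP (right), 1 point for each of the 47 members. Rsad2, Oasl1 and Cmpk2 are far from 0 on both axes, Slfn5 and Sp100 mainly on the group axis, and Ifit1, Isg15 and Slfn2 mainly on the replicate axis.

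The authors' mean of the measured normalised counts, which the deposited comparison tables list for 47 of the 49 members, allows a limited check of the fit. The fitted mean was at least 10% below it in 9 of 47 members (Cmpk2, Ddx60, Ifit1, Ifit3, Isg15, Oasl1, Oasl2, Rsad2 and Rtp4), beside 1.97% of all genes. Rsad2 had a fitted mean of 835 beside an authors' mean of 1160.1, Isg15 123 beside 161, Rtp4 219 beside 289 and Ifit1 432 beside 554. In these genes the measured libraries therefore hold reads that the fitted values do not, and which libraries hold them is not shown. For Slfn5 (449.7 beside 468), Sp100 (383 beside 392) and Oas3 (749 beside 782) both means were within 5% of each other.

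The genes that control the effectors were read from lists of the pathway. Of 8 ligands 1 was in the table, Ifnb1, at 67.0 fitted reads in GFP, 61.8 in TTP and 75.5 in TTP-AA, and its log2 ratio for TTP versus GFP was -0.12 ± 0.15. The receptor chains Ifnar1 and Ifnar2 were at -0.25 ± 0.02 and -0.14 ± 0.03 for TTP versus GFP and at 0.51 ± 0.01 and 0.43 ± 0.03 for TTP-AA versus GFP. None of the 7 receptors and kinases was past 2-fold in any comparison. Of 8 transcription factors 1 was at least 2-fold lower in TTP than in GFP, beside 1.07% of all genes. It was Irf7, at -1.18 ± 0.19 for TTP versus GFP and 1.76 ± 0.17 for TTP-AA versus TTP. Irf9 was at -0.92 ± 0.07 and Stat2 at -0.62 ± 0.10 for TTP versus GFP. Of 8 sensors with a mean of at least 10, 3 were at least 2-fold lower in TTP, beside 1.07% of all genes. These were Ddx58 (-1.38 ± 0.08), Ifih1 (-2.35 ± 0.13) and Dhx58 (-1.19 ± 0.11). All 3 were at least 2-fold higher in TTP-AA than in TTP, beside 2.67% of all genes. In TTP-AA Ifih1 also exceeded GFP, at 1.37 ± 0.06. Of the 8 genes of the early LPS response, among them Tnf, Cxcl2 and Nfkbia, 0 were past 1.5-fold in any comparison, with medians of -0.10, 0.02 and 0.11.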

How the data were processed

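Ribosomal RNA-depleted total RNA of 9 libraries (3 per group) was sequenced as 50 bp single-end reads. The authors trimmed reads (Trim Galore), aligned them to GRCm38 with TopHat (TopHat2 2.0.12 per the labels, up to 2 placements per read), counted reads per Ensembl gene (HTSeq) and fitted a model of library date and condition (DESeq2 1.6.3). How multiply placed reads and strand were counted is not given in the sources used here. The deposited signal values are named normalised counts but are fitted means: of 25504 rows none holds a 0, and the centred log2 values have 4 nonzero singular values where free libraries give 8. The design's limma test could not be used for this reason. The authors' comparison tables hold a deposited mean signal, which was used, and fold changes, errors, Wald scores and p-values, which were not.

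The first row of each gene identifier was kept (10 repeats removed), libraries were scaled by the median of ratios, and genes with a mean of at least 10 were tested for size at 2-fold and 1.5-fold. The ratio calculation was tested on simulated data. The members, families and lists were chosen with earlier results of these data known. All 9 library values are printed for the 4 lowest and 4 highest members of each comparison (mean of at least 50) for 12 members fixed by name, some of them the same, and for Oas3, chosen after its values were seen. Lengths, exons and 3′UTRs came from GENCODE M21, and promoters from RefSeq (GRCm38.p6). Python 3.11.15, numpy 2.4.6, pandas 2.3.3 and matplotlib 3.10.9 were used.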

Additional observations from a re-analysis of the deposited data

How the results depend on the processing

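The choice of threshold moved the counts. At 1.5-fold in place of 2-fold, 22 members were past the threshold for TTP versus GFP (22 lower) and 4 for TTP-AA versus GFP (4 higher). Other settings were total-sum or upper-quartile scaling, centring on the median of all genes or of each chromosome, and other filters. Further settings were pseudocounts of 1 and 8, arithmetic means and the other row of repeated genes. The medians stayed near their main values (-0.54 to -0.46 for TTP versus GFP) and the 2-fold counts within 1.5 times. Across all settings, 22 of 894 ratios of named members moved by clearly more than the counting error given as ±. The largest shift of a named member was 0.31. Over the 7 settings of scaling, centring, pseudocount and group mean, 472 of 483 ratios recomputed for 23 named members kept their direction and 8 had a value of 0.00 in either setting. With chromosome medians at 0, Ifit2 for TTP-AA versus GFP was -0.09 in place of 0.01, Trim25 for TTP-AA versus TTP 0.08 in place of -0.04, and Herc6 for TTP-AA versus TTP -0.01 in place of 0.04. Leaving out a replicate number returned the same ratios within 0.01 by construction, as did the filters and the repeated rows, and says nothing about stability. No paired analysis was possible because the fitted means carry no residual and the authors' model already holds the replicate term. The limma fits without the block were not run for the same reason. Depth limits Ddx60, Isg20, Mx2, Oasl2, Phf11b and Slfn8, whose counting errors for TTP versus GFP were 0.24 or more.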
